A study of Homo sapiens with 3 samples.

Results

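Transcripts of the aminoacyl-tRNA synthetases were measured in RCC4 cells, a human line from clear cell renal carcinoma without functional VHL protein. The genes were chosen by name: 38 synthetases, WARS1 among them, and the scaffold genes AIMP1 and AIMP2, which made 40 of the 60605 genes in the deposited table. Of the synthetases, 21 serve the cytosol and 17 the mitochondrion, with GARS1 and KARS1, whose genes encode the enzyme of both compartments, counted as cytosolic. All 3 libraries came from RCC4 cells that carried a Cas9 lentiviral vector and had received 1000 U/mL of IFN-gamma and 25 ng/mL of TNF for 24 h. Poly(A) RNA was selected and sequenced from 3 biological replicates of 3 flasks each. Untreated cells were not analysed here, so every value is a level in treated cells or a ratio within a library, not a response to the cytokines.

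Aminoacyl-tRNA synthetases join each amino acid to its own tRNA and so set the meaning of the genetic code during translation. Their catalytic domains come in a pair of unrelated folds, class I and class II. Most amino acids have a cytosolic enzyme and a separate mitochondrial enzyme, each from its own nuclear gene, and several cytosolic enzymes are held in a multisynthetase complex by the scaffolds AIMP1, AIMP2 and EEF1E1. WARS1, the cytosolic tryptophanyl-tRNA synthetase, is a classical interferon-gamma-induced gene, and many other cytosolic synthetase genes are targets of ATF4, the transcription factor of the amino acid response.

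The promoter windows of WARS1 and of its mitochondrial counterpart WARS2 are shown first, because WARS1 is the member known for interferon induction. Windows from 250 bases before to 50 bases after each RefSeq start site (GRCh38.p14) were found for 32 of the 40 genes. They were searched on both strands for GAAA and GAAA with any 2 bases between them, the interferon-stimulated response element (ISRE), for TTCNNNGAA, the gamma-activated site (GAS), and for TGATGNAA, the element read by ATF4 with C/EBP partners (CARE). Each line gives 30 bases in the direction of the gene, with the matched letters in capitals.
WARS1 ISRE, chr14:100375383-100375412, minus strand: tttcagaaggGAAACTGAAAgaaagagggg
WARS1 GAS, chr14:100375470-100375499, minus strand: gctcaagtgtTTCTGAGAAtctgggtgatt
WARS2 GAS, chr1:119140844-119140873, minus strand: gaaattctccTTCCAGGAAggctgagcaga
EARS2 ISRE, chr16:23557554-23557583, minus strand: cctgccacgcTTTCGCTTTCccaagctgaa
AARS1 CARE, chr16:70289675-70289704, minus strand: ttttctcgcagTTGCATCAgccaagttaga
NARS1 CARE, chr18:57621804-57621833, minus strand: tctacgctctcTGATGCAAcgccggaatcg

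The ISRE of EARS2 and the CARE of AARS1 were matched on the strand opposite to the gene and therefore read as reverse complements. WARS1 has 2 RefSeq start sites 980 bases apart, and both of its matches lie before the inner one, with their first bases at positions -55 and -142. The window of that inner start site held 3 CpG and 49.7% GC, whereas the window of the outer site held 43 CpG, 72.7% GC and no match to any of the 3 motifs. WARS1 was the only one of the 32 genes with an ISRE and a GAS in 1 window. An ISRE was found in 2 of the 32 genes (6.25%), WARS1 and EARS2, beside 4.38% of all 27305 genes with a window. A GAS was found in 5 (15.6%), namely CARS1, PARS2, TARS1, WARS1 and WARS2, beside 9.38% of all genes. A CARE was found in 8 (25%), beside 4.46% of all genes. Of the cytosolic synthetases with a window, 7 of 16 (43.8%) held a CARE, namely AARS1, CARS1, GARS1, IARS1, MARS1, NARS1 and TARS1, and of the mitochondrial ones 1 of 14 (7.14%), YARS2. These are matches of letters in a short window and do not show binding.

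Reads assigned to genes numbered 29199806 in replicate 1, 26264283 in replicate 2 and 33458691 in replicate 3. A gene was called detected at 1 CPM or more in every library, CPM being reads scaled to a common library size, and levels are RPKM, which divides CPM by kilobases of exon. Leukocyte and erythroid marker genes (5 and 2 genes) were at 0 reads in each library, and the 3 endothelial markers together reached 0.0284 to 0.0721 RPKM. Of the leukocyte markers, CD68 has 100% of its exon length inside the spans of other genes. Only 8.69% of protein-coding genes with at least 80% so placed were detected, so the 0 of CD68 says little. Of the 3 fibroblast markers, 1 was detected, COL1A1 at 0.754 ± 0.0931 RPKM. All 6 markers of the renal line were detected, including the renal lineage factor PAX8 at 1.46 ± 0.0731 RPKM, with 95.7% of its exon length inside other genes. Replicate 1 stood apart from replicates 2 and 3: the common biological coefficient of variation over 11266 detected genes was 0.282 in all 3 libraries and 0.0722 without replicate 1. With 1 group of 3 libraries, an exact sign-flip test cannot give a p under 0.25, so no test is given. A log2 ratio is called past the replicate spread when it has the same sign in all 3 libraries and its mean exceeds 2 SD. Where 1 replicate is left out, the rule is applied to the 2 libraries that remain. Without replicate 1 these are close to each other, so that even a small difference can pass. In bulk RNA a lower level in each cell and fewer expressing cells cannot be told apart.

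Nearly the whole synthetase set was expressed. Of the 40 genes, 36 (90%) were detected, beside a background of 18.6% of all genes and 51.4% of protein-coding genes. Together the 40 genes took 0.611% ± 0.0108 of the reads (SD, n = 3). Their median level was 20.2 ± 0.917 RPKM, and that of all detected protein-coding genes was 6.05 ± 0.391 RPKM. Above the median detected coding gene stood 31 of the 40, and 11 were in the upper 10%. The genes were spread over 16 chromosomes, with 8 on chromosome 1. None of 16 pseudogenes named after them had a read in any library.

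All 4 genes that were not detected encode mitochondrial enzymes. AARS2, MARS2 and VARS2, the mitochondrial alanyl-, methionyl- and valyl-tRNA synthetases, had 0 reads in each library, which allows up to 3 reads in each for counting error only. SARS2, the mitochondrial seryl-tRNA synthetase, had 4, 6 and 14 reads in replicates 1, 2 and 3. Of these, AARS2 and MARS2 have 100% and SARS2 has 95.7% of their exon length inside the spans of other genes on either strand. Across the table, protein-coding genes with at least 80% of their exons so placed were detected in 8.69% of cases, and other protein-coding genes in 59.5%. Of the other 37 of the 40 genes, 36 (97.3%) were detected. The exception was VARS2 (chromosome 6, 30908242 to 30926459, plus strand), with 22.0% of its exon length inside other spans, chiefly GTF2H4, which had 0, 0 and 2 reads. Whether the counting of reads in overlapping genes set these values was not tested here, as no source used gives the counting options.

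The cytosolic synthetases were the more abundant group by RNA. Their median level in replicates 1, 2 and 3 was 40.8, 43.8 and 48.2 RPKM, and that of the mitochondrial synthetases was 8.04, 6.45 and 6.71 RPKM. The groups' medians did not overlap between libraries. The log2 difference of medians was 2.63 ± 0.27 (SD, n = 3), past the replicate spread. All 21 cytosolic genes were detected and 13 of the 17 mitochondrial ones. With the 3 mitochondrial genes that lie inside other genes left out, the mitochondrial median was 10.1 ± 0.390 RPKM over the other 14. Single genes of the groups did overlap over all exons: 14 cytosolic synthetases exceeded IARS2, the highest mitochondrial gene, and 4 mitochondrial ones exceeded CARS1, the lowest cytosolic gene apart from TARS3. These places depended on the length used. Over the length of the principal transcript, a scale chosen after seeing the data, CARS2 was at 92.4 RPKM and IARS2 at 38.3 RPKM. CARS1 was then at 56.2 RPKM, above LARS1 at 34.7 and FARSB at 27.1 RPKM.

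**Figure D1:**
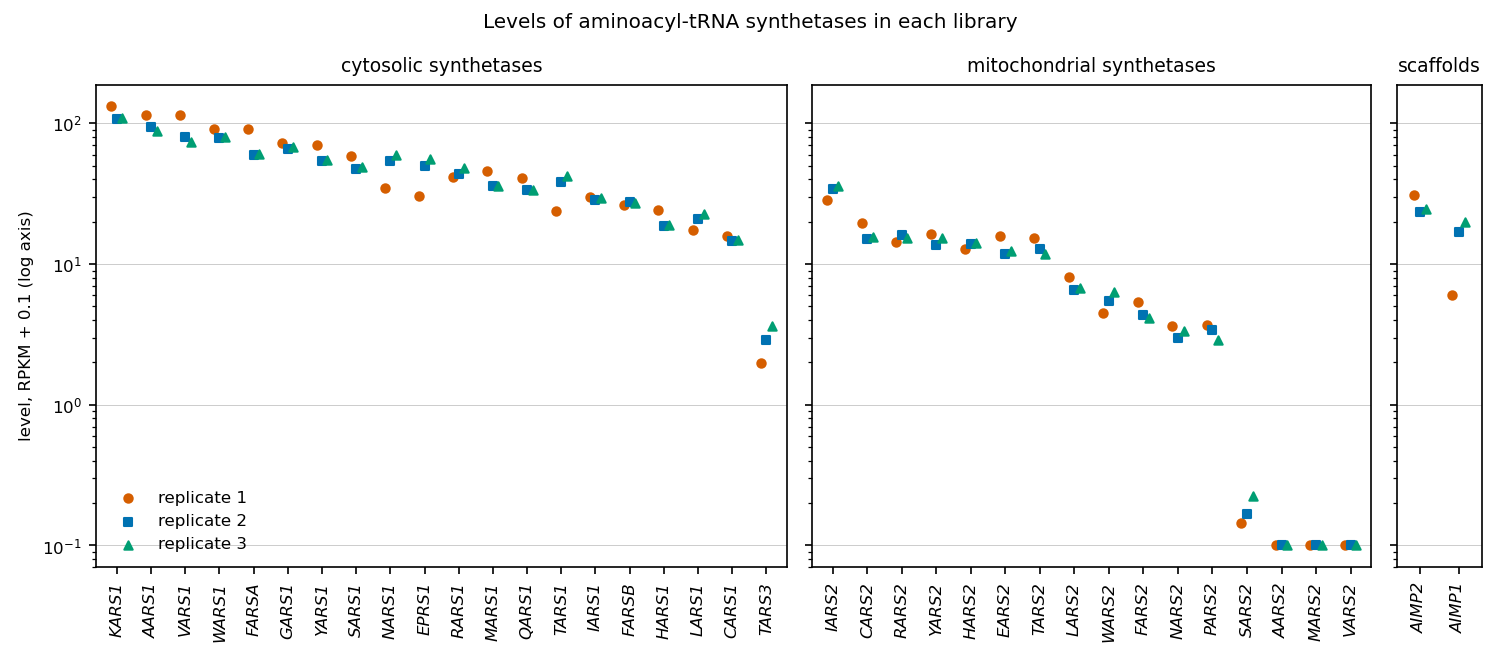
Level in RPKM (with 0.1 added, log axis) of 38 of the 40 genes in the 3 libraries, with 1 point per library and the genes grouped as cytosolic synthetases, mitochondrial synthetases and scaffolds. The median cytosolic gene sits at 44.3 RPKM and the median mitochondrial gene at 7.07 RPKM, and AARS2, MARS2 and VARS2 lie at 0.

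The 8 highest genes per exon length were all cytosolic synthetases. KARS1, which charges lysine tRNA in both compartments (chromosome 16, 75627474 to 75648643, minus strand), was highest, at 131.9, 108.2 and 108.8 RPKM in replicates 1, 2 and 3. AARS1, the alanyl-tRNA synthetase, followed at 115.1, 94.0 and 88.5 RPKM. VARS1, the valyl-tRNA synthetase, was at 114.7, 80.3 and 73.2 RPKM. KARS1 exceeded AARS1 in each library, by 0.23 ± 0.06 on the log2 scale of RPKM, past the replicate spread (without length scaling 0.09 ± 0.06, within it), whereas the step between AARS1 and VARS1 was within it. WARS1 came next with 91.7, 78.8 and 80.04 RPKM, and FARSA, the alpha subunit of the cytosolic phenylalanyl-tRNA synthetase, had 91.2, 60.0 and 60.3 RPKM. GARS1, which charges glycine tRNA in both compartments, had 72.03, 66.2 and 67.7 RPKM. YARS1, the tyrosyl-tRNA synthetase, had 70.2, 53.8 and 54.7 RPKM, and SARS1, the seryl-tRNA synthetase, had 58.1, 47.6 and 49.2 RPKM. All 8 were highest in replicate 1. Over the whole order of the 36 detected genes, 7 of the 35 steps between neighbours were past the replicate spread, so 28 neighbouring pairs did not differ beyond it.

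WARS1 (chromosome 14, 100333788 to 100376805, minus strand) had 15829, 13611 and 17704 reads in replicates 1, 2 and 3, on average the second most of the 40 genes. VARS1 had 18935, 13259 and 15492 reads, more than WARS1 in replicate 1 and fewer in replicates 2 and 3. Its level of 83.5 ± 7.10 RPKM (SD, n = 3) put it at percentile 95.5 of the detected protein-coding genes. It stood above the median of the 40 genes by 2.04 ± 0.16 on the log2 scale, past the replicate spread. Its rank among the 40 was 4 in replicates 1 and 2 and 3 in replicate 3, and it differed within the replicate spread from its neighbours in the order, VARS1 and FARSA. Among the 8 highest it had the second smallest spread between libraries after GARS1, with a coefficient of variation of 8.51%.

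The place of WARS1 depended on the length by which reads were divided. Of its 6358 bases of exon in GENCODE 29, 52.6% lie inside the span of other genes, chiefly an antisense gene that had 0 reads in each library. Over the 3012 bases outside such spans its level was 176 ± 15.0 RPKM, the highest of the 40, with KARS1 second at 122 ± 14.2 RPKM. Over the 3092 bases of the principal transcript, a scale chosen after seeing the data, it was 172 ± 14.6 RPKM and second to KARS1 at 236 ± 27.5 RPKM. WARS1 was among the 4 highest on each of these scales.

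**Figure D2:**
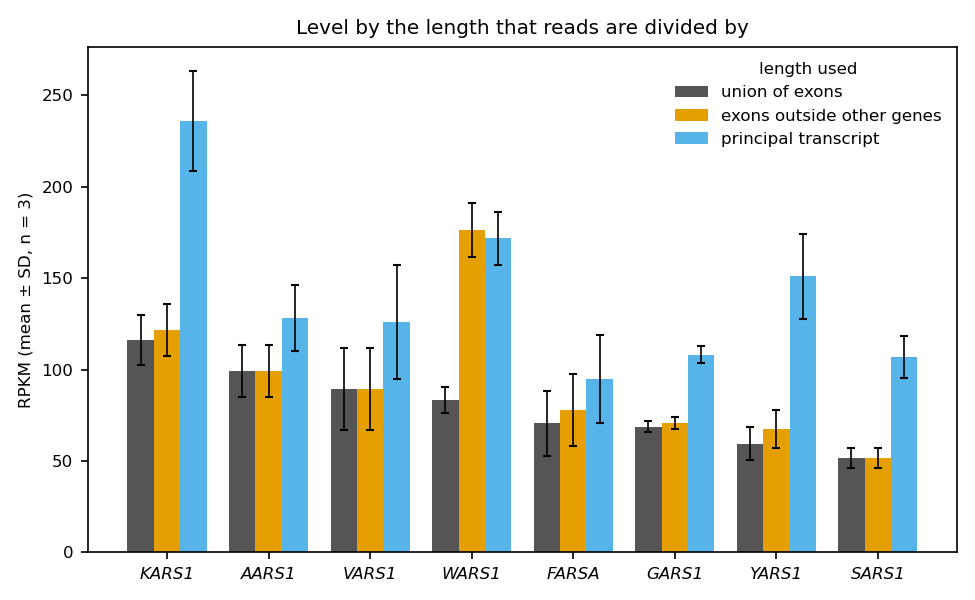
Mean RPKM with SD over 3 libraries for the leading synthetases, with reads divided by the union of exons, by the exon length outside other genes, and by the length of the principal transcript. WARS1 is at 83.5, 176 and 172 RPKM on these 3 scales, and KARS1 at 116, 122 and 236 RPKM.

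Below CARS1 and the scaffold AIMP1 in the order over all exons, the genes were those of mitochondrial enzymes, with 1 cytosolic exception. TARS3, a cytosolic threonyl-tRNA synthetase that is a close relative of TARS1, had 1.90, 2.80 and 3.51 RPKM in replicates 1, 2 and 3. TARS1 itself had 23.9, 38.5 and 42.4 RPKM, and the log2 ratio of TARS3 to TARS1 was -3.63 ± 0.10, past the replicate spread. Near-identical stretches of these related genes could share reads. Lowest of the detected mitochondrial genes were PARS2 and NARS2, which did not differ beyond the replicate spread. PARS2, the mitochondrial prolyl-tRNA synthetase, was at 3.58, 3.29 and 2.78 RPKM. NARS2, the mitochondrial asparaginyl-tRNA synthetase, was at 3.55, 2.90 and 3.25 RPKM. WARS2, the mitochondrial tryptophanyl-tRNA synthetase (chromosome 1, 119031216 to 119140671, minus strand), had 4.37, 5.33 and 6.19 RPKM from 456, 557 and 828 reads.

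For most amino acids the cytosolic enzyme's RNA exceeded that of its mitochondrial counterpart, by amounts that differed widely. Of 18 cytosolic and mitochondrial pairs, 15 had reads for both genes, and in 13 of these the cytosolic gene was higher past the replicate spread. The remaining 2 pairs, for cysteine and isoleucine, were within it. Apart from serine, the widest gaps over all exons were those of tryptophan, phenylalanine, asparagine and proline, whose order changed with the libraries used. Which gaps were widest also depended on length. The log2 ratio of YARS1 over YARS2 was 3.29 over principal transcripts and 3.904 without length scaling. That of FARSA over FARS2 was then lower, 2.85 and 2.95. WARS1 over WARS2 was 4.36, 3.86 and 3.67 on the log2 scale of RPKM in replicates 1, 2 and 3, a mean of 3.97 ± 0.36 or 15.6-fold. For phenylalanine, FARSA over FARS2 was 3.92 ± 0.15 (15.1-fold). FARS2, a single-chain enzyme, had 5.26, 4.22 and 4.07 RPKM. For asparagine, NARS1 was at 34.5, 54.4 and 60.0 RPKM and its log2 ratio over NARS2 was 3.87 ± 0.54 (14.6-fold). EPRS1, which joins the glutamyl and prolyl enzymes in 1 protein, had 30.2, 49.8 and 55.8 RPKM. It exceeded PARS2 by 3.73 ± 0.63 (13.3-fold) and the mitochondrial glutamyl enzyme EARS2 by 1.72 ± 0.69 (3.30-fold) on the log2 scale. Without replicate 1, the log2 ratios were 4.175 for asparagine, 4.08 for EPRS1 over PARS2, 3.83 for FARSA over FARS2 and 3.77 for tryptophan.

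The other pairs had smaller ratios over all exons. FARSB over FARS2 was 2.57 ± 0.23 on the log2 scale (5.93-fold), and the tyrosine, arginine, leucine, threonine and histidine pairs lay between 1.97 ± 0.14 for YARS1 over YARS2 and 0.58 ± 0.28 for HARS1 over HARS2. Over principal transcripts FARSB over FARS2 was 1.075 and HARS1 over HARS2 was 1.69. Without replicate 2 or without replicate 3, the ratios of EPRS1 over EARS2 (1.55 and 1.501), TARS1 over TARS2 (1.24 and 1.11) and HARS1 over HARS2 (0.66 in each case) were no longer past the spread. That call was also lost over principal transcripts for EPRS1 over EARS2 (1.31) and TARS1 over TARS2 (1.183), and for HARS1 over HARS2 over the exon length outside other genes (0.22) or with the GC trend removed (0.41). HARS1 and HARS2 lie head to head on chromosome 5 and share 437 bases, so reads there cannot be told apart without strand. For cysteine, CARS1 had 15.8, 14.6 and 14.7 RPKM and CARS2 had 19.4, 14.9 and 15.6 RPKM, a log2 ratio of -0.13 ± 0.14. For isoleucine, IARS1 had 29.7, 28.3 and 29.6 RPKM and IARS2 had 28.6, 34.0 and 35.7 RPKM, a log2 ratio of -0.16 ± 0.19. Without replicate 1, IARS1 over IARS2 was -0.27, and with the GC trend removed it was -0.24, in each case past the replicate spread with IARS2 higher. Both of these ratios also depended on the length used: over the principal transcripts IARS1 over IARS2 was 0.28 and CARS1 over CARS2 was -0.71, the cysteine ratio then past the replicate spread with CARS2 higher. SARS1 over SARS2 had the largest ratio of all, 8.19 ± 0.43 on the log2 scale, but it rests on the 4 to 14 reads of a gene that lies inside another.

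**Figure D3:**
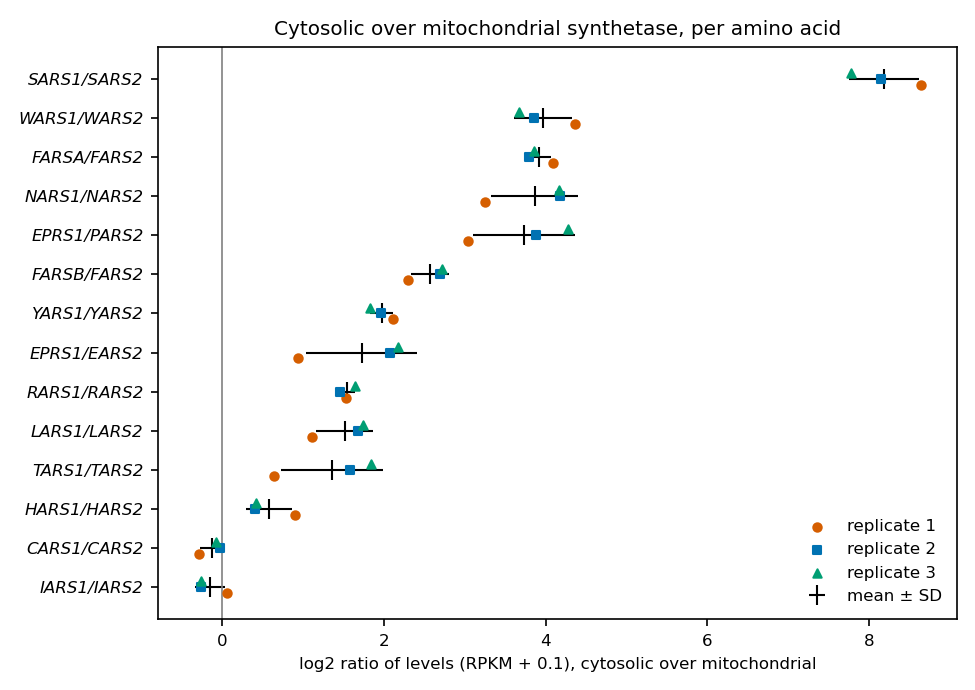
Log2 ratio of the cytosolic over the mitochondrial synthetase for 14 of the 15 measured pairs, with 1 point per library and the mean over 3 libraries. The tryptophan pair is at 3.97, the cysteine and isoleucine pairs lie about 0, and the serine pair at 8.19 rests on 4 to 14 reads of SARS2.

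The enzymes of the multisynthetase complex were less abundant by RNA than the free cytosolic enzymes, on the median. The 8 complex enzymes had medians of 35.5, 34.9 and 34.8 RPKM in replicates 1, 2 and 3, and the 13 free cytosolic enzymes had 58.1, 53.8 and 54.7 RPKM. The log2 difference was -0.67 ± 0.05, past the replicate spread. It was -0.27 without length scaling and -0.30 ± 0.14 with the GC trend removed. These SDs are over libraries and do not measure the spread between genes. Single genes of the groups overlapped, at 20.4 to 116.3 RPKM for complex enzymes and 2.73 to 99.2 RPKM for free ones. Levels within the complex ranged widely, and KARS1 was its only enzyme among the 8 highest genes over all exons. Over the exon length outside other genes MARS1 ranked 8, and by reads MARS1 and EPRS1 ranked 7 and 8. RARS1, for arginine, had 41.4, 43.8 and 48.2 RPKM. MARS1, for methionine, had 45.7, 35.9 and 35.8 RPKM, and QARS1, for glutamine, had 40.8, 33.8 and 33.8 RPKM. These lay near the median of the complex. LARS1, for leucine, was the lowest enzyme of the complex at 17.4, 20.9 and 22.7 RPKM. MARS1 and QARS1 were highest in replicate 1, whereas EPRS1, RARS1 and LARS1 were lowest there. IARS1, for isoleucine, varied least of the complex, with a coefficient of variation of 2.72%.

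Of the scaffolds, AIMP1 varied most between libraries. AIMP2 had 30.7, 23.2 and 24.5 RPKM in replicates 1, 2 and 3, and its log2 ratio to the median complex enzyme was -0.43 ± 0.21, past the replicate spread. Over the exon length outside other genes that ratio was -0.08 ± 0.32, within the spread, with AIMP2 at 43.1, 32.7 and 34.5 RPKM and the median enzyme at 35.8, 39.2 and 42.6 RPKM. It was also within the spread without replicate 2 (-0.35) or without replicate 3 (-0.39). AIMP1, which also gives rise to the secreted cytokine EMAP II, had 5.95, 16.9 and 19.9 RPKM from 538, 1528 and 2301 reads. Its coefficient of variation of 51.5% was the largest of the 40 genes, and its ratio to AIMP2, -1.03 ± 1.14 on the log2 scale, was within the replicate spread. Without replicate 1 that ratio was -0.38 ± 0.11, past the spread, and with the GC trend removed it was 0.28 ± 0.22. EEF1E1, the remaining scaffold and not one of the 40 genes, had 0 reads in each library and 97.7% of its exon length inside other genes.

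The paired subunits of the cytosolic phenylalanyl-tRNA synthetase, which assemble in equal numbers, differed in RNA. FARSA exceeded FARSB by 1.79, 1.11 and 1.14 on the log2 scale of RPKM in replicates 1, 2 and 3, a mean of 1.35 ± 0.38, past the replicate spread. FARSB varied little, at 26.4, 27.7 and 27.3 RPKM with a coefficient of variation of 2.57%, whereas FARSA was highest in replicate 1. FARSA has the highest GC content of the 36 detected genes (61.7%) and FARSB has 41.6%. With the GC trend of each library removed, the ratio was 0.29 ± 0.24, within the replicate spread.

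Over both compartments together, the structural classes had no difference in level that held across lengths and filters. The median of the 18 class I synthetases was 18.7 ± 0.420 RPKM and that of the 19 class II synthetases was 19.2 ± 0.870 RPKM. EPRS1, which holds an enzyme of each class, was counted in neither. The log2 difference of -0.05 ± 0.07 was within the replicate spread, but it was past the spread in 6 alternatives, with class I higher in 4 of them and lower in 2. Of those 2, the value without replicate 1 was only -0.011 ± 0.002 and rests on 2 libraries. Among cytosolic enzymes the class I median was 37.7 ± 3.17 RPKM (9 genes) and the class II median 43.75 ± 8.07 RPKM (11 genes), a log2 difference of -0.20 ± 0.40, within the spread. It was -0.43 ± 0.04 without replicate 1 and 0.21 ± 0.01 without length scaling, both past the spread. Among mitochondrial enzymes the class I median was 12.8 ± 1.34 RPKM (9 genes) and the class II median 3.94 ± 0.415 RPKM (8 genes). With genes inside other genes left out these were 13.9 ± 1.16 RPKM (8 genes) and 6.32 ± 0.419 RPKM (6 genes). The log2 difference among mitochondrial enzymes was 1.69 ± 0.053 in the main setting, past the replicate spread. It stayed past the spread with class I higher in each alternative tried for it, and was smallest over principal transcripts, at 1.07. The CPM and read filters were not applied to it. The SD is over libraries and does not measure the spread between genes.

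Measured against how often each amino acid is used, WARS1 stood apart from the other cytosolic synthetases. The share of each amino acid in the coding sequences of 10144 protein-coding genes was set beside the RPKM of its enzyme, a comparison chosen after the values were seen. The shares were weighted by the levels of these genes over principal transcripts in each library, whereas the enzyme's RPKM was over all exons. Tryptophan was the rarest residue, at 1.07% ± 0.00372, and WARS1 had 77.8 ± 6.37 RPKM per percent of residues. The next highest was YARS1, with 22.2 ± 3.46 RPKM per percent of tyrosine. The median over the 20 amino acids was 8.54 RPKM per percent. Leucine was the commonest residue, at 9.31%, and LARS1 had the lowest value, 2.19 ± 0.291 RPKM per percent. The measure divides by the share, so a rare residue raises it and a common one lowers it. Cysteine, the second rarest residue at 1.85%, had a value of 8.15 ± 0.424 RPKM per percent for CARS1. WARS1 was also first over principal transcripts, at 160 RPKM per percent against 56.2 for YARS1. Over the 20 amino acids, residue share and synthetase RPKM had a Spearman rho of 0.23, a description across genes that share the same 3 libraries, with the glutamate and proline points both taken from EPRS1.

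**Figure D4:**
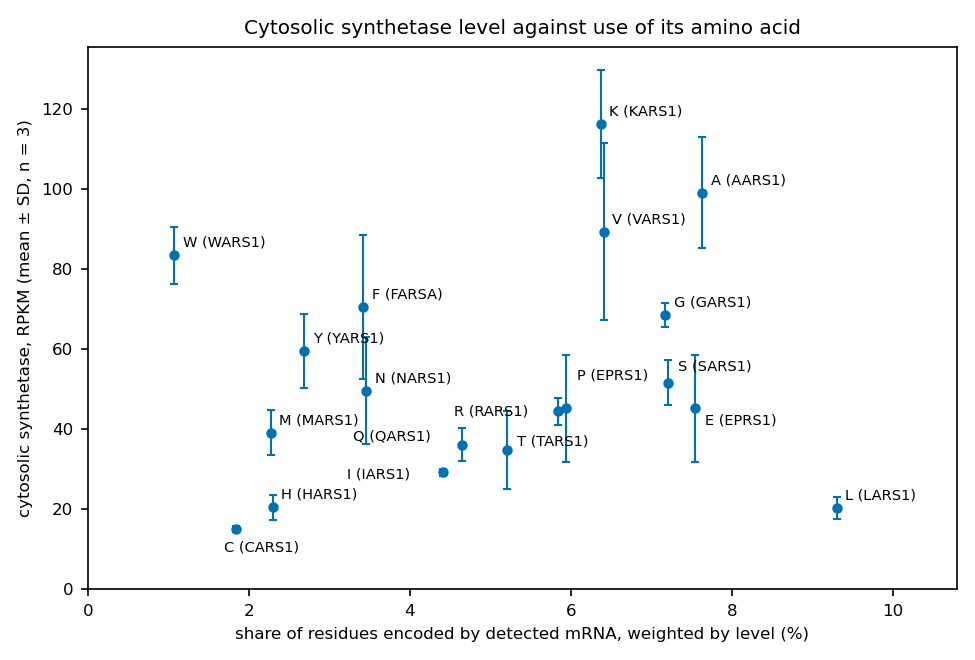
Share of 19 of the 20 amino acids in the coding sequences (percent of residues, weighted by level over principal transcripts) against the mean RPKM over all exons of its cytosolic synthetase, with SD over 3 libraries. Tryptophan lies at 1.07% with WARS1 at 83.5 RPKM, and leucine at 9.31% with LARS1 at 20.4 RPKM.

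Variation between the libraries followed GC content in the synthetases. The log2 level in replicate 1 over the mean of replicates 2 and 3 was set beside GC content, pooled over all annotated transcripts of a gene. Their Spearman rho was 0.82 over the 36 detected genes, which share these libraries. It was 0.79 over the 9095 protein-coding genes, the 36 included, whose mean was 5 CPM or more. The 14 genes with GC under 45% had a median log2 ratio of -0.31, beside -0.72 for all coding genes in that range. The 15 genes with 50% or more had one of 0.345, beside 0.346 for all coding genes. The lowest ratio was that of AIMP1, -1.63 at 38.1% GC, and the highest was that of FARSA, 0.60. EPRS1, TARS1, TARS3 and NARS1 had ratios of -0.81, -0.76, -0.73 and -0.73. In the comparison of replicates 3 and 2, the median absolute log2 ratio was 0.068 over the 36 genes. Replicate 1 was above both other replicates for 23 of the 36 genes (63.9%), beside a background of 52% of coding genes, and below both for 13 (36.1%), beside 41.8%. It was below 50% of the mean of the other libraries for 1 gene of 36, AIMP1 (2.78%), beside 13.7% of coding genes, and for 0 genes once the GC trend was removed.

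**Figure D5:**
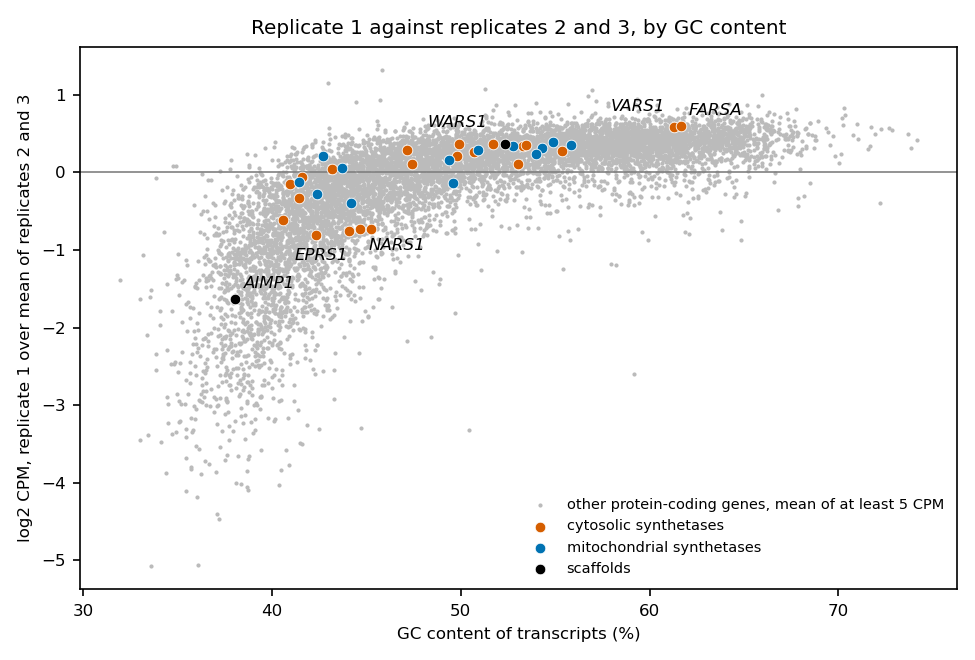
GC content in percent, pooled over the annotated transcripts of each gene, against the log2 ratio of replicate 1 over the mean of replicates 2 and 3, with the 36 detected genes drawn over other protein-coding genes. The genes run from AIMP1 at 38.1% GC and -1.63 to FARSA at 61.7% GC and 0.60.

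Genes that work beside the synthetases were described from lists chosen with earlier results of these data known. Of the 12 genes of tryptophan use, 7 were detected. Beside WARS1 at 83.5 ± 7.10 RPKM, SLC7A5, the light chain of a transporter that imports tryptophan, was at 85.0 ± 20.2 RPKM, and QPRT, an enzyme of NAD synthesis from tryptophan, was at 76.2 ± 4.73 RPKM. IDO1, the interferon-induced enzyme that degrades tryptophan, had 0 reads in each library with 94.7% of its exon length inside other genes, and TDO2, the hepatic enzyme for the same step, also had 0 reads. Whether the overlap set the value of IDO1 was not tested.

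Of the 16 genes of the amino acid response, 13 were detected. ATF4 was the highest at 165 ± 13.3 RPKM, followed by SHMT2, a serine and glycine enzyme of the mitochondrion, at 71.1 ± 14.1 RPKM and CEBPB, a C/EBP factor, at 63.2 ± 11.5 RPKM. ASNS, the asparagine synthetase, had 0 reads in each library with 100% of its exon length inside other genes. PHGDH, the first enzyme of serine synthesis, had 0, 0 and 2 reads in replicates 1, 2 and 3 with 0% of its exons so placed. EIF2AK4, the kinase GCN2 that senses uncharged tRNA, was at 7.88 ± 0.271 RPKM.

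The partners of mitochondrial tRNA charging were all detected, 4 of 4, with a median of 4.24 RPKM. QRSL1, GATC and GATB, subunits of the amidotransferase that makes mitochondrial glutaminyl-tRNA, were at 6.42 ± 0.604, 4.30 ± 1.17 and 1.96 ± 0.206 RPKM. MTFMT, which formylates the mitochondrial initiator tRNA, was at 4.18 ± 0.495 RPKM. Of the 6 genes of trans-editing and tRNA quality control, 3 were detected. DTD1, a D-aminoacyl-tRNA deacylase, was at 7.45 ± 0.964 RPKM, PTRH2 at 6.88 ± 0.615 RPKM and PTRHD1 at 2.00 ± 0.162 RPKM. AARSD1 and DTD2 had 0 reads in each library, and each has over 80% of its exons inside other genes.

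Of 5 interferon-gamma reference genes, 3 were detected. The level of WARS1 was 83.5 ± 7.10 RPKM. GBP1, a guanylate-binding protein, was at 717 ± 94.2 RPKM and PSMB9, an immunoproteasome subunit, at 138 ± 19.98 RPKM. The order of WARS1 and PSMB9 depended on the length used: their log2 ratio was -0.72 ± 0.08 over all exons and 0.28 ± 0.08 over the exon length outside other genes, past the replicate spread on either scale. IRF1 and CXCL10 had 0 reads in each library with 100% of their exons inside other genes.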

How the data were processed

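RNA-seq libraries were processed by the authors with FastQC, cutadapt 1.18, HISAT2 2.1.0 and featureCounts 2.0.0 on hg38, per the submitters' processing notes. The strand setting, counting options and annotation release are not given in the sources. What the authors deposited is a signal per gene, that is gene counts divided by a size factor for the library, as read from the values: 100% of them came out as whole reads within 0.01 of a read (size factors 0.946, 0.971 and 1.24). The planned design assumed counts, and these recovered reads took their place. In replicate 1, 1621 genes had a count of 2 and 269 a count of 1, so reads are not independent molecules and floors cover counting error only.

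TMM factors from edgeR 4.0.16 under R 4.3.3 scaled the reads, which were divided by the union of exons in GENCODE 29 (GRCh38), to which 58337 of 60605 identifiers matched. That release need not be the authors', and reads from outside exons may be included. Log2 values used a pseudocount of 0.1 RPKM. Current symbols were matched by gene identifier. Promoter windows came from RefSeq (GRCh38.p14). Spread was summarised with edgeR's common dispersion, and this and the GC correction were tested on simulated data.

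The genes and lists were chosen with earlier results of these data known. Values in every library are given for the 8 highest and 5 lowest genes, WARS1 and WARS2, pairs over 4-fold or against the median direction, FARSA and FARSB, the multisynthetase genes, and the 3 largest and 3 smallest coefficients of variation. Of each list, the 3 highest and 2 lowest are named. A few genes that this rule names are not reported here but count in all totals. Other genes were named after their values were seen. Alternatives in scaling, pseudocount, filter, length, GC content and libraries were tried.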

Additional observations from a re-analysis of the deposited data

How the results depend on the processing

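No paired analysis was possible because all 3 libraries belong to 1 group. Over 376 values under alternatives, some on results added after seeing the data, 336 kept their direction and call, 15 were weaker, 7 stronger, 13 reversed and 5 moved. The cytosolic over mitochondrial difference of medians stayed between 1.77 and 2.82 on the log2 scale, and that of complex over free enzymes between -0.74 and -0.27. The class I over class II difference (-0.05) was 0.029 over exon length outside other genes, 0.738 without length scaling, 0.632 over principal transcripts (chosen after seeing the data), 0.436 with the GC trend removed and 0.132 with a 0.1 CPM filter. It was -0.323 with genes inside other genes left out and -0.357 with a 10 CPM filter, and without 1 replicate it lay between -0.072 and -0.011. Of these it was past the spread in each case except over exon length outside other genes, with the 10 CPM filter and without replicate 2 or 3. Among cytosolic enzymes it was 0.037 over exon length outside other genes and 0.211 without length scaling. Among mitochondrial enzymes it stayed between 1.07 and 1.718, past the spread in each alternative tried for it. WARS1 (rank 4) ranked 1 over exon length outside other genes and 2 without length scaling, over principal transcripts and with the GC trend removed. With that trend removed, FARSA over FARSB was 0.285, within the spread, and 0 genes were below 50% in replicate 1. IARS1 over IARS2 was 0.668 without length scaling and 0.281 over principal transcripts, and CARS1 over CARS2 was 0.039 with the GC trend removed. WARS1 over PSMB9 was 0.277 over exon length outside other genes and 0.332 without length scaling, and AIMP1 over AIMP2 was 0.281 with the GC trend removed. The EPRS1 over EARS2 and TARS1 over TARS2 ratios left the call without replicate 2 (1.55 and 1.24) or 3 (1.501 and 1.11), as did HARS1 over HARS2 (0.66 in each case). Except where the alternative's own construction shows the cause, it was not tested. Scaling by median-of-ratios, by total reads or as deposited changed no call. For log2 ratios within a library it could hardly do so, because the factor of a library cancels there apart from the pseudocount. These settings therefore do not test such ratios, although their values are among the 376. Counting error is widest for SARS2, at 4 to 14 reads, and the genes at 0; whether depth set these values was not tested.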
